A study of Mus musculus with 6 samples.

Results

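Phase II conjugating enzymes attach a polar group to small molecules such as odorants and drug metabolites. The members described here are the genes of 3 conjugation chemistries that were measured on the arrays by a probe set annotated to 1 gene: glutathione transferases (symbols in Gsta, Gstk, Gstm, Gsto, Gstp, Gstt and Mgst), UDP-glucuronosyltransferases (Ugt) and cytosolic sulfotransferases (Sult). They were chosen by symbol, and a gene with several probe sets is represented by its brightest. The rule gave 48 of the 19937 genes tested, of which 21 are glutathione transferases, 11 belong to the UDP-glucuronosyltransferase family and 16 are sulfotransferases.

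RNA came from the septa and turbinates of the nose of newborn C57BL6 mice (postnatal day 0), obtained by intercrossing Atf5+/- parents. The samples were 3 pools of Atf5-/- pups and 3 pools of Atf5+/+ pups, each of 3 pups and each hybridised to 1 array. Atf5 encodes a leucine zipper transcription factor linked to the response to cell stress. The labels name no tissue restriction of the deletion. The dissected tissue holds neurons, supporting cells, glands and the tissue under the epithelium, so fewer cells of a type and less RNA per cell cannot be told apart in any value below.

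In the nose, odorants are first oxidised by cytochrome P450 enzymes and their relatives and are then conjugated, which makes them more soluble and ends their action on receptors. Glutathione transferases join the thiol of glutathione to reactive carbons, UDP-glucuronosyltransferases of families 1 and 2 transfer glucuronic acid from UDP-glucuronate, and sulfotransferases transfer sulfate from the donor PAPS. Much of this capacity is known to lie in sustentacular cells, the supporting cells of the epithelium, and in Bowman glands.

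Atf5 itself had log2 levels of 9.43, 9.44 and 9.50 in the Atf5-/- arrays, against 10.54, 10.96 and 10.63 in the Atf5+/+ arrays, a log2 change of -1.25 (SE 0.10, limma adjusted p = 0.000499). The part of the gene that was removed is not given in the sources used here. The arrays had medians of 8.67 to 8.72 on the log2 scale, and no array stood apart by its correlation with the others (0.988 to 0.994). Among cell type lists, 12 of 13 mature neuron genes fell, while none of 9 sustentacular genes passed the test. Values are log2 levels of a probe set as deposited. Levels of different genes come from different probes. Differences and sums of levels over genes are therefore read only between arrays, not as one gene being above another.

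Of the 48 conjugating enzyme genes, 1 changed past the threshold of an adjusted p of 0.05, the sulfotransferase Sult1d1, which was lower in the knockout. That is 2.08% of the members, beside 3.74% of all genes tested. By direction, 1 of the 48 was lower, beside 3.24% of all genes, and 0 were higher, beside 0.502% of all genes. At an unadjusted p under 0.05, 8 of the 48 members passed, beside 16.1% of all genes, which is a share near the background. The median log2 change of the members was 0.04, with the middle of the distribution between -0.06 and 0.11, and the median of all genes was 0.01. By chemistry, 0 of 21 glutathione transferases, 0 of 11 UDP-glucuronosyltransferases and 1 of 16 sulfotransferases passed, with medians of 0.05, 0.02 and 0.03.

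The intervals of the measured changes were narrow for most members. The 95% interval lay within 2-fold in either direction, that is between -1 and 1 on the log2 scale, for 47 of 48 genes, the exception being Sult1d1. It lay between -0.5 and 0.5 for 41 of 48. Of the 48, 24 were on dim probe sets, with a mean log2 level under 8.14, where changes may be compressed. The interval lay between -0.5 and 0.5 for all 24 dim genes, and for 17 of the 24 others. A narrow interval on a dim probe set therefore says little about the absence of a change.

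**Figure D1:**
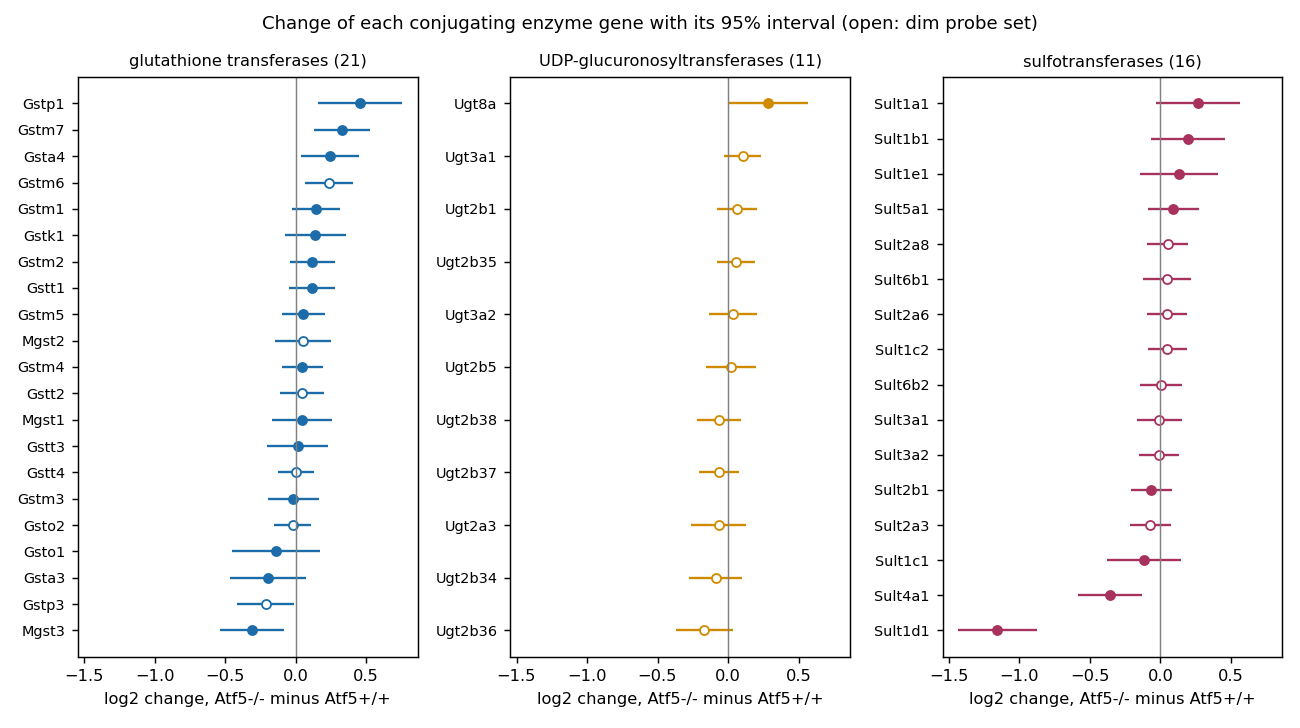
Log2 change (Atf5-/- minus Atf5+/+) of the 48 genes, 1 panel per chemistry, as points with 95% intervals from limma. Open points are genes whose mean lies under the 30th percentile of all genes. Sult1d1, at -1.16, stands alone at the lower end, and no other interval reaches 1 or -1.

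Sulfotransferases are described first, because they hold the one call. Sult1d1, known in mice as a sulfotransferase of dopamine and other catecholamines, had log2 levels of 10.87, 11.19 and 10.75 in the Atf5-/- arrays, against 12.15, 12.25 and 11.89 in the Atf5+/+ arrays. All 3 knockout arrays were below all 3 wild-type arrays, and the gap between the groups was larger than the spread within either. The mean was 10.94 ± 0.23 in the knockout and 12.09 ± 0.18 in the wild type (SD, n = 3 each), a log2 change of -1.16 (SE 0.12, limma adjusted p = 0.00146), which is 2.23-fold lower (95% interval 1.83 to 2.70). Among the 645 genes that were lower in the knockout, 71 were lower by at least 2-fold, and Sult1d1 was number 42 by size. It passed in every alternative tried, with changes of -1.28 to -1.06.

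Sult1d1 lies between Sult1b1 and Sult1e1 on chromosome 5, in the order of the mouse assembly GRCm38.p6, next to the Ugt2 genes. The RefSeq sequence around the start of each of these 3 sulfotransferase genes, from 250 bases before the start to 50 bases after it, is shown because the middle gene changed and its neighbours did not pass. All are given in build GRCm38.p6, 5′ to 3′ on the minus strand, which is the strand of the genes: Sult1d1 at chr5:87568957-87569256, Sult1b1 at chr5:87538146-87538445 (the more upstream of its 2 listed starts) and Sult1e1 at chr5:87591562-87591861.
Sult1d1: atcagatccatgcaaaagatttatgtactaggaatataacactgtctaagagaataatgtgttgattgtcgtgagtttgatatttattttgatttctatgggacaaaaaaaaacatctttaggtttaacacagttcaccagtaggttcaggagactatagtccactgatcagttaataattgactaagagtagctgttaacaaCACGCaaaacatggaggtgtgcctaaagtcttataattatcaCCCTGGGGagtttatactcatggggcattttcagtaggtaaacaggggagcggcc
Sult1b1: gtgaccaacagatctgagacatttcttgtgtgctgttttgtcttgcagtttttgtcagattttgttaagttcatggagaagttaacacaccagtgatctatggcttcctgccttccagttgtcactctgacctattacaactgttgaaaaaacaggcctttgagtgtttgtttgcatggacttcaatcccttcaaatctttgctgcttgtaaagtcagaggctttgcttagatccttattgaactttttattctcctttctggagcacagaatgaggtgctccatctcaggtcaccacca
Sult1e1: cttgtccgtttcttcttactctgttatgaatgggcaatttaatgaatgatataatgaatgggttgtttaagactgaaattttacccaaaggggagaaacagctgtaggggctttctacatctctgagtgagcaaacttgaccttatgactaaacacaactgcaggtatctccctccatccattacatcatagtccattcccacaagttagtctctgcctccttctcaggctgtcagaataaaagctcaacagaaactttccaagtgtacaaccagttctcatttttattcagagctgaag
Capitals mark matches, on either strand, to any of 3 motifs: TGACNNNGC, the core of the antioxidant response element bound by NRF2; GCGTG, the core of the xenobiotic response element bound by the aryl hydrocarbon receptor; and CCCNNGGG, a palindrome of the kind bound by EBF factors of olfactory neurons. The Sult1d1 window held 1 match to GCGTG, on the opposite strand and starting 47 bases before the start, and 1 to CCCNNGGG, starting 5 bases before it. The 2 do not overlap. The windows shown for Sult1b1 and Sult1e1 held no match to any of the 3, but the window of the other Sult1b1 start, not shown, held 1 match to GCGTG, starting 196 bases before that start. Of all 32851 promoter windows of this length, 32.4% held GCGTG, 13.7% held CCCNNGGG and 12.4% held TGACNNNGC. Of the 55 windows of members, which cover 44 of the 48 genes, 11 held GCGTG (20.0%), 6 held CCCNNGGG (10.9%) and 4 held TGACNNNGC (7.27%), the last in Gsta3, Gstm5, Gstm7 and Mgst1. A match is a string of letters and was not tested as a binding site.

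Sult1e1, the estrogen sulfotransferase, had 11.35, 11.34 and 10.98 in the Atf5-/- arrays, against 11.14, 11.25 and 10.88 in the Atf5+/+ arrays. The groups overlapped, and the change was 0.13 (95% interval -0.14 to 0.41). Sult1b1, which acts on phenols and thyroid hormones, had 8.33, 8.40 and 8.10 in the knockout, against 8.23, 8.18 and 7.84 in the wild type, with a change of 0.19 (-0.07 to 0.46). The level of Sult1d1 minus that of Sult1e1 was -0.48, -0.15 and -0.23 in the knockout arrays, against 1.00, 0.99 and 1.01 in the wild-type arrays, so that its mean moved by -1.29. Against Sult1b1 the mean moved by -1.35, and against the probe set shared by Ugt2a1 and Ugt2a2 by -1.08. In each of these 3 comparisons the groups did not overlap (2-sided exact permutation p = 0.10, adjusted p = 0.10 over the 3 comparisons), and 0.10 is the smallest p that 3 arrays against 3 can give. Sult1d1 was picked because it had passed, and its own change enters all 3 differences. The 3 comparisons are therefore not independent support for that change. Among the 11 members on chromosome 5, the 10 others, 8 Ugt2 genes and 2 sulfotransferases, lay between -0.17 and 0.19. All 8 Ugt2 genes were on dim probe sets, so their small changes say little.

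**Figure D2:**
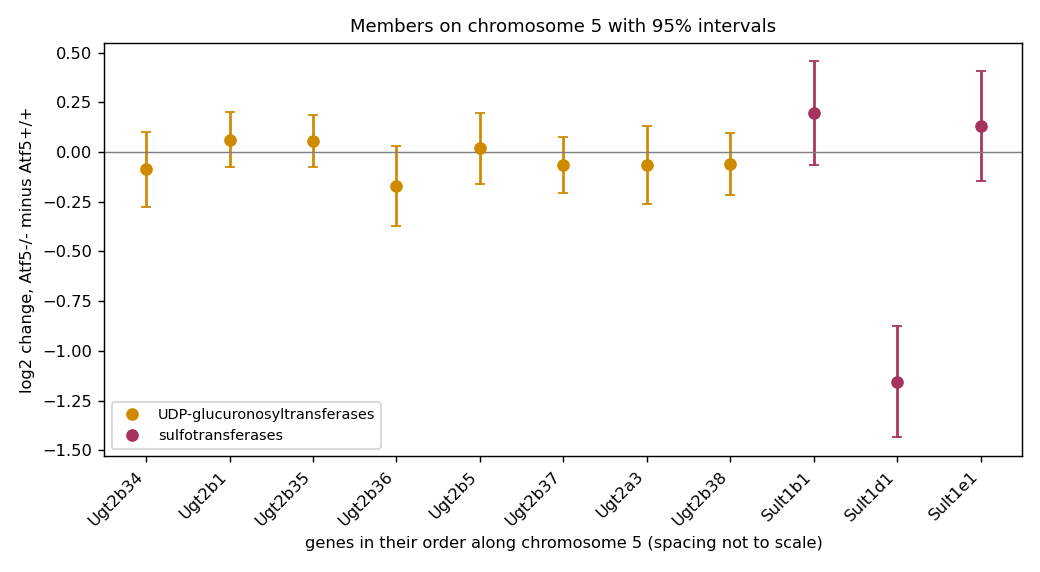
Log2 change (Atf5-/- minus Atf5+/+) with 95% interval of the 11 members on chromosome 5, in gene order with spacing not to scale. Sult1d1, at -1.16, lies between neighbours whose changes are 0.19 and 0.13. All 8 Ugt2 genes are on dim probe sets.

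The other sulfotransferases did not pass. Sult4a1, a brain-enriched family member with no settled substrate, had 8.67, 8.82 and 8.73 in the Atf5-/- arrays, against 9.33, 9.01 and 8.95 in the Atf5+/+ arrays. Its groups did not overlap and its change was -0.36 (SE 0.10, limma adjusted p = 0.10). Sult1a1, the main phenol sulfotransferase, had 9.75, 9.54 and 9.49 in the knockout, against 9.58, 9.38 and 9.02 in the wild type, a change of 0.27 (SE 0.13, limma adjusted p = 0.370) with overlapping groups. Sult1c1, another phenol sulfotransferase, had 12.18, 12.16 and 11.96 in the knockout, against 12.48, 12.13 and 12.03 in the wild type. Its groups overlapped too, and its change was -0.11 (95% interval -0.38 to 0.15), which turned to 0.02 without the first wild-type array.

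The remaining 10 sulfotransferases lay between -0.07 and 0.09. They are Sult1c2, Sult2a3, Sult2a6, Sult2a8, Sult2b1 (a cholesterol sulfotransferase), Sult3a1, Sult3a2, Sult5a1, Sult6b1 and Sult6b2. For the Sult2a and Sult3a genes, hydroxysteroid and amine sulfotransferases known mainly from liver, all 5 means were under the 30th percentile of all genes (8.14 on the log2 scale). The means of Sult1c2, Sult6b1 and Sult6b2 were under it too. Probe sets this dim are close to background, and changes there may be compressed.

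**Figure D3:**
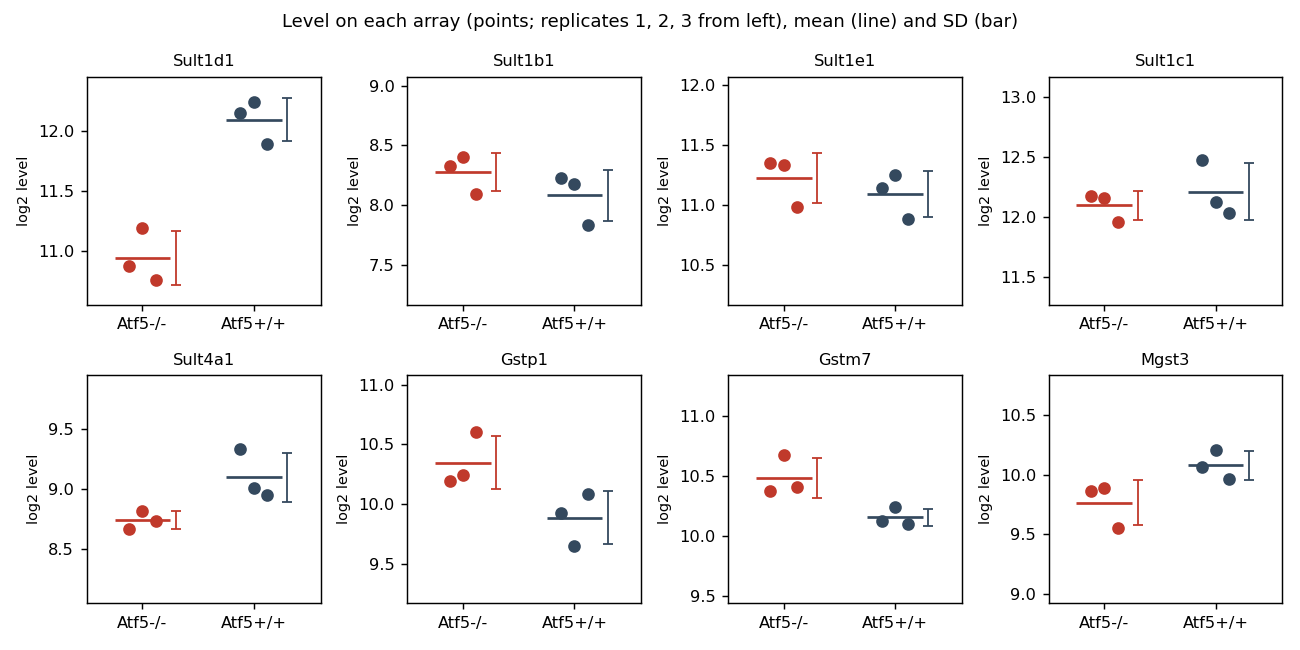
Log2 level of 8 members on each array, with Atf5-/- left of Atf5+/+; points are replicates, lines are means and bars are SD (n = 3). Every panel spans the same range of log2 units. The groups are separate for Sult1d1, Sult4a1, Gstp1, Gstm7 and Mgst3 and overlap for Sult1b1, Sult1e1 and Sult1c1.

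Among the 21 glutathione transferases, 14 lay above 0 and 7 below, with changes from -0.31 to 0.46. Of all genes, 53.0% lay above 0. None passed. The lowest adjusted p by limma was 0.0873, for Gstm7, and 6 of the 21 had an unadjusted p under 0.05, beside 16.1% of all genes. When arrays of equal replicate number were treated as blocks, Gstp1 and Gstm7 rose and Mgst3 fell. Together with Sult1d1, 4 of the 48 members then passed, beside 6.57% of all genes, with 2 higher beside 2.11% and 2 lower beside 4.46%.

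Gstp1 encodes the pi class enzyme, known to conjugate a wide range of electrophiles. It had 10.19, 10.24 and 10.60 in the Atf5-/- arrays, against 9.93, 9.65 and 10.09 in the Atf5+/+ arrays, so that all knockout arrays were above all wild-type arrays. The change was 0.46 (SE 0.13), or 1.37-fold higher (95% interval 1.12 to 1.69), with a limma adjusted p of 0.112, and of 0.0102 with the replicate block. Another 2 probe sets, annotated to Gstp1 and Gstp2 together, had changes of 0.19 and 0.28 and did not pass over all probe sets (limma adjusted p = 0.257 and 0.309). The pi class gene Gstp3, on a dim probe set, was at -0.21 (SE 0.09, limma adjusted p = 0.286), with 7.27, 7.25 and 7.53 in the knockout, against 7.61, 7.45 and 7.62 in the wild type.

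The mu class genes, conjugating enzymes that sit side by side on chromosome 3, were all measured, Gstm1 to Gstm7. Of the 7, 6 lay above 0, beside 53.0% of all genes, and the median was 0.12. Gstm7 had 10.38, 10.68 and 10.41 in the Atf5-/- arrays, against 10.13, 10.24 and 10.10 in the Atf5+/+ arrays, without overlap. Its change was 0.33 (SE 0.09), 1.26-fold higher (1.09 to 1.44), with a limma adjusted p of 0.0873, and of 0.0196 with the replicate block. Gstm6, on a dim probe set, also did not overlap, with 7.05, 7.29 and 7.20 in the knockout, against 6.90, 7.02 and 6.92 in the wild type. Its change was 0.24 (SE 0.08, limma adjusted p = 0.157).

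The other mu class genes moved less. Gstm1 had 13.26, 13.45 and 13.36 in the knockout, against 13.23, 13.29 and 13.11 in the wild type, a change of 0.14 (95% interval -0.03 to 0.31). Gstm2 was at 0.12 (-0.04 to 0.28), Gstm5 at 0.05, Gstm4 at 0.05 and Gstm3 at -0.02. Gstm3 has a second probe set, dimmer than the one used, at 0.07, and neither passed. The mu class genes are close in sequence, and how far their probe sets read each other's transcripts is not known from the files.

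Microsomal glutathione transferases are membrane proteins of another fold. Mgst3, known for peroxidase activity on lipid hydroperoxides, had 9.86, 9.89 and 9.55 in the Atf5-/- arrays, against 10.06, 10.20 and 9.96 in the Atf5+/+ arrays, with all knockout arrays lower. Its change was -0.31 (SE 0.10), 1.24-fold lower (1.06 to 1.45), with a limma adjusted p of 0.162, and of 0.0262 with the replicate block. Mgst1, the broad microsomal enzyme, was at 0.04 (95% interval -0.17 to 0.26), and Mgst2, related to leukotriene C4 synthase, at 0.05 on a dim probe set.

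Among the alpha class, Gsta4, an enzyme of the lipid aldehyde 4-hydroxynonenal, had 11.17, 11.22 and 11.03 in the knockout, against 10.91, 11.05 and 10.73 in the wild type. The groups overlapped at 1 array each, and the change was 0.24 (SE 0.09, limma adjusted p = 0.233). Gsta3 was at -0.20 (SE 0.12, limma adjusted p = 0.478). Gstk1, an enzyme of mitochondria and peroxisomes, was at 0.14, Gsto1, which reduces dehydroascorbate, at -0.14, and Gstt1, of the theta class, at 0.12, with an interval of -0.05 to 0.28. The 3 other theta genes, Gstt2, Gstt3 and Gstt4, lay between -0.00 and 0.04, and Gsto2 was at -0.02. Of these, Gstt2, Gstt4 and Gsto2 were on dim probe sets.

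Across all 48 members, the arrays of the groups did not overlap for 3 lower genes, Sult1d1, Sult4a1 and Mgst3, and for 5 higher genes, Gstp1, Gstm7, Gstm6, Ugt8a and Ugt3a1. Of all genes, 10.3% were lower and 10.8% higher without overlap, and neither share of the members was above that background.

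The UDP-glucuronosyltransferase family had 0 calls by limma, with 0 of 11 also at an unadjusted p under 0.05 (16.1% of all genes), and 0 with the replicate block. Its 11 members with a probe set of their own include 8 glucuronide-forming enzymes of family 2, and all 8 were dim. They are Ugt2a3, Ugt2b1, Ugt2b5, Ugt2b34, Ugt2b35, Ugt2b36, Ugt2b37 and Ugt2b38, several of them known as liver enzymes. Their mean log2 levels ran from 5.45 to 7.18 in the knockout and from 5.40 to 7.24 in the wild type. The 8 changes lay between -0.17, for Ugt2b36, and 0.06, with a median of -0.06, and no interval passed -0.37 or 0.20.

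The other 3 members of the family do not make glucuronides in the usual sense. Ugt8a, which makes the galactosylceramide of myelin, was the one member above the dim range, with 9.68, 9.74 and 9.56 in the Atf5-/- arrays, against 9.53, 9.55 and 9.05 in the Atf5+/+ arrays. The lowest knockout array (9.562) was just above the highest wild-type array (9.555), and the change of 0.28 (SE 0.13) did not pass (limma adjusted p = 0.318). Ugt3a1 and Ugt3a2, relatives whose human counterparts use other sugar donors, were at 0.10 and 0.04.

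The UDP-glucuronosyltransferases best known from olfactory tissue share probe sets and are not members. One probe set is annotated to Ugt2a1 and Ugt2a2 together, genes that share exons. It had 12.92, 12.85 and 12.74 in the Atf5-/- arrays, against 13.13, 12.80 and 12.81 in the Atf5+/+ arrays, with overlap and a change of -0.08 (95% interval -0.32 to 0.17). One annotated to 8 Ugt1a genes was at 0.06 (-0.14 to 0.26). In all, 10 probe sets were annotated to several genes that include one of these families, and 0 of the 10 passed by limma over the 34760 probe sets, 0 with the replicate block, and 2 had an unadjusted p under 0.05, both annotated to Gstp1 and Gstp2. Their changes lay between -0.12 and 0.28.

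The members above the dim range shared a pattern between arrays of the same genotype. Of these 24, the third Atf5-/- array was the lowest of its genotype for 15 (62.5%, beside 44.6% of all genes). The third Atf5+/+ array was the lowest of its genotype for 20 (83.3%, beside 37.5% of all genes). The shares of all genes include dim genes. Over all 48 members, the third array was lowest for 43.75% in the knockout, which is near the share of all genes, and for 56.25% in the wild type. The summed linear signal of the 9 sustentacular genes was 46188, 44064 and 41627 in the knockout arrays, against 48807, 45937 and 45683 in the wild-type arrays. It was lowest in the same 2 arrays, but only narrowly in the wild type. By single gene, all but Cbr2 and Notch2 were lowest in the third knockout array. In the wild type, only Ermn, Cbr2 and Hes1 were lowest in the third array. Cyp2g1, Cyp1a2, Sec14l3 and Notch2 were lowest in the second, and Krt8 and Krt18 in the first. Of the 21 pathway and cell type lists, 7 had their lowest sum of each genotype in the third arrays, among them the immature neuron, respiratory secretory and phase I lists, and 14 did not, among them the gland and mature neuron lists. The part of any of these cells in the array pattern was not tested.

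**Figure D4:**
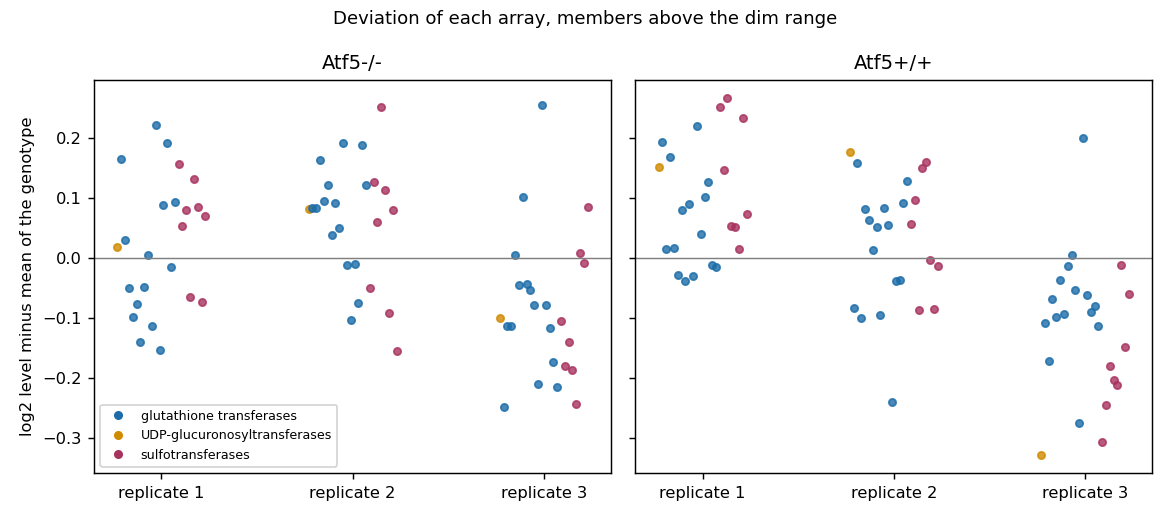
Deviation of each array from the mean of its genotype, in log2 units, for the 24 members above the dim range; each point is 1 gene on 1 array, coloured by chemistry, with Atf5-/- left of Atf5+/+. The points of replicate 3 lie mostly below 0 in both genotypes.

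The genes that supply donors and move conjugates were read from lists chosen with earlier results known. The counts of these and later lists stand beside 3.74% of all genes called and 16.1% with an unadjusted p under 0.05. Of 18 genes of glutathione supply and recycling, 4 had an unadjusted p under 0.05. After adjustment, 1 rose and 17 did not pass, with a median of 0.00. The one is Chac1, an enzyme that breaks down glutathione and a known target of the integrated stress response, with 9.43, 9.29 and 9.16 in the knockout, against 8.93, 8.90 and 8.97 in the wild type. Its change was 0.36 (SE 0.08, limma adjusted p = 0.0320). With the replicate block, Ggt7, a relative of the gamma-glutamyltransferases, rose by 0.30 (limma adjusted p = 0.166, and 0.0181 with the block), and Chac2, which also degrades glutathione, fell by 0.25 (0.276, and 0.0464 with the block). The call of Chac1 ended when any array other than the third knockout array was left out (adjusted p up to 0.113).

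Of 7 genes of UDP-glucuronate supply and glucuronide hydrolysis, 3 had an unadjusted p under 0.05. After adjustment, 1 fell and 6 did not pass, with a median of 0.15. Uxs1, which turns UDP-glucuronate into UDP-xylose, had 11.08, 11.13 and 10.88 in the knockout, against 11.42, 11.42 and 11.33 in the wild type, a change of -0.36 (SE 0.08, limma adjusted p = 0.0357). With the replicate block, Slc35d1, a transporter of UDP-glucuronate, rose by 0.26 (limma adjusted p = 0.0857, and 0.0342 with the block). The call of Uxs1 ended with median centring (adjusted p = 0.0558) and when any array other than the second knockout array was left out (up to 0.136). None of 13 genes of sulfate donor supply and hydrolysis passed by limma, and 1 had an unadjusted p under 0.05. The PAPS synthases Papss1 and Papss2 were at 0.03 and 0.24 (SE 0.06 and 0.08), Papss2 with 12.31, 12.59 and 12.37 in the knockout, against 12.17, 12.22 and 12.16 in the wild type (limma adjusted p = 0.163). None of 10 conjugate exporters passed by limma, 0 also at an unadjusted p under 0.05, with Abcc1 at -0.09 and Abcc2 at -0.02. None of 13 other conjugating enzymes passed, 1 at an unadjusted p under 0.05, with Gstz1 at 0.02 and Hpgds at -0.03.

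Of 17 target enzymes of NRF2, a transcription factor that induces many glutathione transferases, 1 fell, 1 rose and 15 did not pass, with a median of -0.01. At an unadjusted p under 0.05, 4 of the 17 passed. Nqo1, a quinone reductase also known as a marker of the dorsal zone of olfactory neurons, had 8.69, 8.93 and 8.20 in the Atf5-/- arrays, against 10.37, 10.65 and 10.26 in the Atf5+/+ arrays, 3.54-fold lower (log2 change -1.82, SE 0.17, limma adjusted p = 0.000822). Ftl1, the ferritin light chain, had 9.58, 9.62 and 9.56 in the knockout, against 9.30, 9.25 and 9.31 in the wild type, a change of 0.30 (SE 0.06, limma adjusted p = 0.0225). Its call ended when any array other than the third knockout array was left out (adjusted p up to 0.0827). None of 15 regulators passed by limma, and 2 had an unadjusted p under 0.05. Nfe2l2, the gene of NRF2, was at -0.19 (SE 0.16) and its inhibitor Keap1 at 0.05 (SE 0.06).

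None of 20 phase I and odorant-oxidising enzymes passed by limma, and 3 had an unadjusted p under 0.05. Cyp2g1, an olfactory cytochrome P450, was at -0.36 (SE 0.09, limma adjusted p = 0.0760, and 0.0114 with the replicate block), and Cyp2f2 at -0.03 (SE 0.08).

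Cell type markers give the setting of the Sult1d1 value. Of 13 mature olfactory neuron genes, 12 fell, and the median change was -1.59 with a range from -2.74 to -0.21. Their summed linear signal was 8456 to 9786 in the knockout arrays, against 30012 to 34902 in the wild-type arrays. S100a5, a calcium-binding protein of active neurons, was 6.70-fold lower and Gnal, the G protein subunit of odour transduction, 5.13-fold lower. Of 6 immature neuron genes, 3 fell, and with the replicate block Stmn2 did too (limma adjusted p = 0.336, and 0.0480 with the block), with sums of 13170 to 15439 in the knockout, against 17004 to 19466 in the wild type. None of 9 sustentacular genes passed by limma (2 at an unadjusted p under 0.05), with a median of -0.03, Cyp2g1 at -0.36 and Cyp1a2 at -0.33 (SE 0.38), and sums of 41627 to 46188 in the knockout, against 45683 to 48807 in the wild type. None of 12 gland genes passed (4 at an unadjusted p under 0.05), with a median of -0.12 and sums of 34249 to 46158 in the knockout, against 38869 to 50961 in the wild type. With the replicate block, 2 gland genes fell, Obp1a and Ltf (limma adjusted p = 0.0486 and 0.0433, against 0.207 and 0.265 without it), and Bpifb3 rose (0.0117, against 0.241 without it). The 3 enamel genes, of which 2 fell without the replicate block and Ambn also with it (limma adjusted p = 0.0891, and 0.0338 with the block), had sums of 839 to 2054 in the knockout, against 2480 to 10141 in the wild type. Of 7 skeletal muscle genes, none passed, with 2 at an unadjusted p under 0.05 and sums of 8403 to 10706 in the knockout, against 3829 to 8913 in the wild type. With the replicate block, Myh3 and Mylpf of this list rose (limma adjusted p = 0.0438 and 0.0449, against 0.205 and 0.468 without it). Of 5 endothelial genes, none passed, with 3 at an unadjusted p under 0.05 and sums of 8401 to 8618 in the knockout, against 6907 to 8004 in the wild type. None of the 8 ciliated, 5 secretory, 5 horizontal basal, 5 microvillous and 5 myeloid genes passed, nor the 1 measured erythroid gene. With the replicate block, the ciliated gene Dnali1 and the erythroid gene Alas2 rose (limma adjusted p = 0.0399 and 0.00982, against 0.197 and 0.307 without it), and the secretory gene Muc5ac fell (0.0298, against 0.358 without it). No marker was at 0, a value that log2 array levels do not reach, and the part of any of these cell types in the change of Sult1d1 was not tested.

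**Figure D5:**
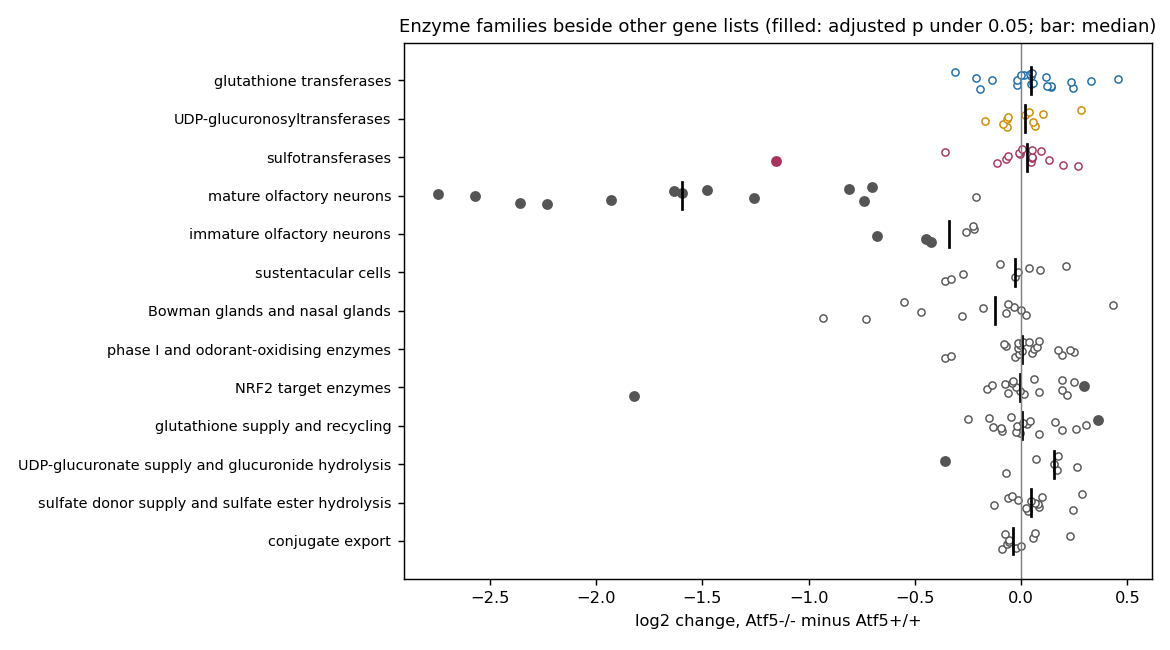
Log2 change (Atf5-/- minus Atf5+/+) of every measured gene of the 3 enzyme families and 10 other lists; filled points have an adjusted p under 0.05 and bars are medians. Mature neuron genes spread from -2.74 to -0.21, while the enzyme families centre near 0 with Sult1d1 as the one filled point.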

How the data were processed

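Total RNA of 6 pooled samples was measured on 1-colour Affymetrix whole-transcript arrays. RMA, with affy and limma, is named per the submitters' processing notes. RMA corrects the background, quantile-normalizes the arrays and summarises each probe set, which hides shifts common to all genes. The deposited values (4.50 to 14.7) were taken to be log2. Neither the log base nor the build is stated there. The number of arrays limits the precision. The table held 34760 rows, of which 21640 had 1 gene symbol in GEO's platform annotation, 1321 several and 11799 none; the reference table (GRCm38.p6) changed 0 symbols. Rows with 1 symbol were used, with the brightest probe set of each of the 954 genes that had several. No filter was applied (0 columns of other samples were present).

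Atf5-/- was compared with Atf5+/+ by limma 3.58.1 in R 4.3.3 (lmFit, eBayes), 2-sided, with Benjamini-Hochberg adjustment over 19937 genes and a threshold of 0.05; SE and 95% intervals are moderated. The procedure was tested on simulated data. Members and lists were chosen with earlier results of these data known. Named are members past the threshold with or without the block, the 3 largest changes of each chemistry, a set of members listed by name, and other members by value or range; of other lists, up to 4 genes past the threshold or otherwise the first 2. Genes of these lists called only with the block were named after their values were seen. Of cell type lists, mostly counts and summed linear signals are given.

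Group and replicate number came from the titles, which call the samples biological replicates. Same-numbered arrays deviated together from their genotype means (r = 0.295, 0.122 and 0.234 for numbers 1, 2 and 3), each over the minimum of 0.1. The numbers were therefore used as blocks in an alternative fit, from the data and not from the labels. The main fit has no such term, so its p-values, SE and intervals leave this pairing out. Because the pairing was picked from these same data, the block values are not an independent check. Block values are printed where they change a call. Alternatives were the block, quantile normalization, median centring, 2 filters on dim genes (30th and 50th percentile), the mean of probe sets, a trended and robust prior, and leaving out each array.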

Additional observations from a re-analysis of the deposited data

How the results depend on the processing

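Over 13 alternatives, 25 members with printed values gave 314 values, of which 306 kept their direction and their side of the threshold. The 3 that newly passed were Gstp1, Gstm7 and Mgst3, all with the replicate block, which gave 4 called conjugating enzymes against 1, 3 called glutathione transferases against 0, and 1310 called genes against 745. The block changed no other call among these members. With filters at the 30th percentile and the median, 432 and 286 genes were called, with fewer genes tested. Leaving out 1 array gave 410 to 649 called genes, 1 to 1 called conjugating enzymes, 1 to 1 called sulfotransferases and 0 to 0 in the other families. Gstm3 turned to 0.0275 as the mean of its probe sets, and Abcc2 to 0.00333 with quantile normalization. With 1 array left out, some values changed sign. Gstm3 lay between -0.0688 and 0.0518, Mgst1 between -0.0522 and 0.129, and Sult1c1 between -0.205 and 0.0188. Papss1 lay between -0.0103 and 0.0659, Abcc2 between -0.0763 and 0.0245, Gstz1 between -0.0254 and 0.0889, and Hpgds between -0.148 and 0.105. Nfe2l2 lay between -0.305 and 0.0317, Cyp2f2 between -0.0889 and 0.0303, and Cyp1a2 between -0.750 and 0.0503. The cause of these changes was not tested. Dim probe sets limit what can be said of most UDP-glucuronosyltransferases.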
